A study of Homo sapiens with 4 samples.

Results

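H3K27ac, the acetylation of histone H3 that marks active promoters and enhancers, was examined at 10 genes of the TEAD and YAP axis in triple-negative breast cancer cells. They were chosen by their place in the pathway from 19970 protein-coding genes, with earlier results of these data known. The 10 comprise the transcription factor genes TEAD1, TEAD2, TEAD3 and TEAD4, the coactivator genes YAP1 and WWTR1 (which encodes TAZ), and the target genes CCN1, CCN2, AMOTL2 and ANKRD1. Peaks were counted within 1 kb of the start site of each gene's canonical transcript, here called the promoter, and in a window made of the gene body and 100 kb on either side. MDA-MB-231 and Hs578T are established lines of triple-negative breast cancer with mesenchymal features. Per the labels, both lines were starved of serum for 8 h, given 10 ng/ml of TWEAK, the ligand of the receptor Fn14, for 48 h, and kept without it for 72 h before fixation. Each line had 2 ChIP-seq libraries and 1 deposited peak list per library. The study's text gives a longer wash-off than the labels. All 4 libraries came from cells after washout. Untreated cells and cells with TWEAK still present were not analysed here, so no value below measures what TWEAK or its removal did.

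TEAD proteins bind DNA but activate transcription poorly alone, and they rely on YAP or TAZ bound to them. The Hippo kinases restrain YAP and TAZ by phosphorylation, which keeps them in the cytoplasm, whereas spreading on a stiff matrix and actin tension release them into the nucleus. In breast cancer cells, TEAD and YAP are known to act largely through enhancers, often next to AP-1, the JUN and FOS dimer, and their best known target genes encode secreted matricellular proteins and feedback inhibitors of the pathway.

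The list labelled MDA-MB-231 replicate 1 stood apart from the other 3. It held 209 peaks on chromosomes 1 to 22 and X, against 43353 in MDA-MB-231 replicate 2, 46330 in Hs578T replicate 1 and 44920 in Hs578T replicate 2. Peaks covered 0.113, 81.8, 90.7 and 83.9 Mb in the same order. Of 50710 regions obtained by merging all lists, 37832 (74.6%) were called in each of the 3 large lists, the one labelled MDA-MB-231 replicate 2 among them. Whether that list carries the right label, and whether MDA-MB-231 replicate 1 came from a failed library, was not tested. Lists are therefore named by label, and each difference between the labels given below rests on the single large list labelled MDA-MB-231. All 5 luminal or epithelial marker genes (ESR1, GATA3, FOXA1, ESRP1 and CDH1) lacked a promoter peak in every list. All 4 mesenchymal markers (VIM, AXL, CD44 and ZEB1) were marked there in each large list and unmarked in MDA-MB-231 replicate 1. Of all protein-coding genes, 56.4% to 58.2% had a promoter peak in the large lists and 0.0601% in MDA-MB-231 replicate 1. The luminal loci were not all free of peaks. In each large list the windows of CDH1 and GATA3 had more covered bases than the median gene, and those of ESR1, ESRP1 and FOXA1 had fewer. Depth is unknown, and fold enrichment, the authors' ratio of signal over background at a peak, is set by the background of each library. Its values are therefore printed for each list, and only its rank within a list was compared between lists. With 2 libraries per line, the smallest two-sided p-value an exact permutation test can give is 0.333, and no test between lines was made.

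The DNA upstream of the 4 target genes is shown first, because the letters that TEAD proteins prefer lie there inside the H3K27ac peaks. Each sequence holds the 250 bases before the start site in the direction of transcription, read from hg38, and none of these bases lies in an annotated exon. Capitals mark GGAATG on either strand (its reverse complement is CATTCC), the core of the TEAD motif. The windows are chr1:85580511-85580760 on the plus strand for CCN1, chr6:131951373-131951622 on the minus strand for CCN2, chr3:134374448-134374697 on the minus strand for AMOTL2 and chr10:90921088-90921337 on the minus strand for ANKRD1.
CCN1: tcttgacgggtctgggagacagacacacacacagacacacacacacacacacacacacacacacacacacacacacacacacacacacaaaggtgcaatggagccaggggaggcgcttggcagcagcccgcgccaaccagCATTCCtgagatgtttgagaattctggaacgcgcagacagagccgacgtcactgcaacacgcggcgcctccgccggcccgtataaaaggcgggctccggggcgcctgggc
CCN2: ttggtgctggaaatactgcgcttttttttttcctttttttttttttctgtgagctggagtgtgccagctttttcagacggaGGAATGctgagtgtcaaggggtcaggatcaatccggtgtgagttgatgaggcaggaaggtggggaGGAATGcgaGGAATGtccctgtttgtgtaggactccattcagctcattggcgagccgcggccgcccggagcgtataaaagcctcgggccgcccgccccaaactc
AMOTL2: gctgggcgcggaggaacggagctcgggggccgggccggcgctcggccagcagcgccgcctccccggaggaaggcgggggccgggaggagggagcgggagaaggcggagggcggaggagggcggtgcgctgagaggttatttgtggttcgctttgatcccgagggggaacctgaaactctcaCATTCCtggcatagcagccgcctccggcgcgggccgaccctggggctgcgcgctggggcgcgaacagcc
ANKRD1: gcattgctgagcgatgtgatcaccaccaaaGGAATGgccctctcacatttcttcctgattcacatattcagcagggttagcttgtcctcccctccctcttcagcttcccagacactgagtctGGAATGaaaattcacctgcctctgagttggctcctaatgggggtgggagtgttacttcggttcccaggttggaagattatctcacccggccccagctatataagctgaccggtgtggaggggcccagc

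In each of the 3 large lists, a single peak spanned all 250 bases of every one of these 4 windows. The letters occurred 3 times before CCN2, at −169 to −164, −104 to −99 and −95 to −90 counted from the start site. They occurred at −220 to −215 and −128 to −123 before ANKRD1, at −110 to −105 before CCN1 and at −69 to −64 before AMOTL2. Among the same 250-base windows of all 19970 protein-coding genes, 1976 (9.89%) held at least 1 match, against 4 of 4 target genes. These 4 genes were chosen as known targets of TEAD and YAP, so their count is not independent of that choice. Of the factor genes, TEAD1, TEAD4 and YAP1 also held a match, so that 7 of the 10 genes did. The stricter word GGAATGT, which contains the core, was found before CCN2, AMOTL2 and YAP1, and in 2.06% of all windows. The AP-1 letters TGAGTCA or TGACTCA, on either strand, occurred before none of the 10 genes and in 3.07% of all windows. A match of letters is a description of the sequence and does not show that the protein was bound.

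The promoters of all 10 genes were marked in the 3 large lists, and none was in MDA-MB-231 replicate 1. Across all protein-coding genes, the share with a promoter peak was 58.1% in MDA-MB-231 replicate 2, 58.2% in Hs578T replicate 1, 56.4% in Hs578T replicate 2 and 0.0601% in MDA-MB-231 replicate 1, so that 0 of 10 in the small list is near its background. Both width and fold enrichment were above those of the typical marked gene. The median promoter peak of the 10 genes was 5824 bp wide in MDA-MB-231 replicate 2, against 1792 bp over all marked genes. It was 6781 bp against 1897 bp in Hs578T replicate 1 and 5810 bp against 1804 bp in Hs578T replicate 2. The median fold enrichment at these promoters was 16.8, 15.7 and 12.7 in the same lists, against 9.18, 8.13 and 6.86 over all marked genes. A promoter peak at least 5 kb wide, a limit set after the values were seen, was found at 4.6%, 5.51% and 4.32% of all genes in the same order. Among the 10 genes it was found at 5, 6 and 5. CCN1, CCN2, AMOTL2, ANKRD1 and TEAD1 passed it in all 3 large lists, and WWTR1 passed it in Hs578T replicate 1 only.

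**Figure D1:**
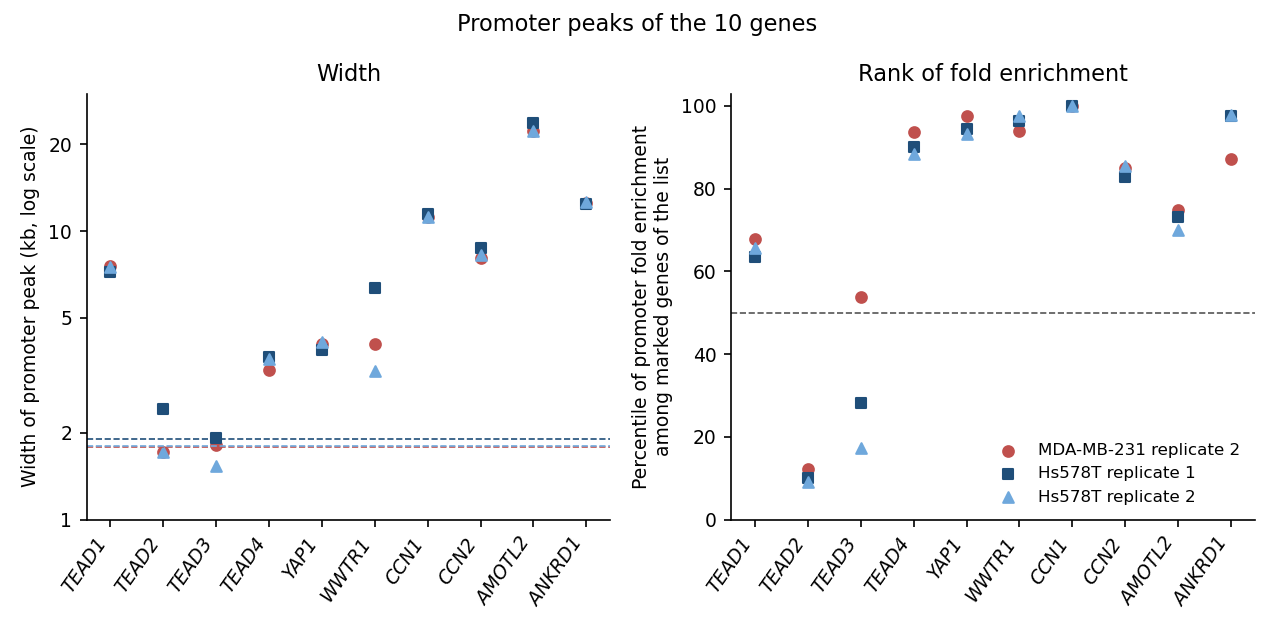
Promoter peaks of the 10 genes in the 3 large lists. Left, peak width in kb on a log axis, with dashed lines at each list's median over all marked genes (1792, 1897 and 1804 bp). Right, percentile of the peak's fold enrichment among the marked genes of the same list, with a dashed line at 50. The 4 target genes have wide peaks in every list, TEAD2 and TEAD3 lie near the median width, and CCN1 lies at the top of the fold enrichment ranks. MDA-MB-231 replicate 1 had no promoter peak at these genes and is not drawn.

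The target genes had the widest peaks of the 10. CCN1 (ENSG00000142871.18, chr1:85580761-85584589, plus strand) encodes a secreted matricellular protein that binds integrins, formerly CYR61. Its promoter peak measured 11196 bp in MDA-MB-231 replicate 2, 11473 bp in Hs578T replicate 1 and 11189 bp in Hs578T replicate 2. It reached 5439, 5707 and 5509 bp upstream and 5756, 5765 and 5679 bp downstream of the start, and so enclosed the whole gene. The authors' fold enrichment of this peak was 46.8, 47.1 and 37.5 in these lists. In each large list only 2 of all protein-coding genes had a promoter peak with a higher fold enrichment, while 132, 178 and 144 genes had a wider one. CCN1 was thus marked by a peak that was both broad and strong, and its rank by fold enrichment was the same in the 3 large lists.

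The CCN1 locus extended well beyond the promoter. Its window of 204 kb held 14, 13 and 15 peaks in MDA-MB-231 replicate 2, Hs578T replicate 1 and Hs578T replicate 2, which covered 52658, 57997 and 55098 bp. This was between 25.8% and 28.5% of the window, a share exceeded by 142, 161 and 139 of all protein-coding genes. Downstream of the gene, an intergenic region 29.6 kb from the start (chr1:85605167-85615613) was called in the 3 large lists with fold enrichments of 35.1, 45.0 and 39.4. In Hs578T replicate 2 this region, not the promoter, had the highest fold enrichment of the window. A second intergenic region at 48.2 kb (chr1:85626187-85631657) had values of 33.1, 35.6 and 29.6. Upstream, 6 regions shared by the 3 large lists lay in DDAH1, the neighbouring gene for an enzyme that breaks down methylated arginine, with fold enrichments between 3.06 and 13.2.

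CCN1 was also the only gene of the 10 with any peak in MDA-MB-231 replicate 1. That peak (chr1:85584089-85584478) was 390 bp wide, with a fold enrichment of 3.47 and a q-value of 0.0137. It lay 3.52 kb after the start site, inside the annotated gene body but past the end of the canonical transcript, and within the broad promoter peak of the other 3 lists. At q of at most 0.01 it was lost, and the list then held no peak in any of the 10 windows.

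CCN2 (ENSG00000118523.6, chr6:131948176-131951372, minus strand) encodes connective tissue growth factor, a secreted protein of the same family. Its promoter peak was 8102 bp wide in MDA-MB-231 replicate 2, 8744 bp in Hs578T replicate 1 and 8236 bp in Hs578T replicate 2, and it covered the whole gene in each. Wider promoter peaks were found at 304, 358 and 291 genes, and higher fold enrichments at 1740, 2015 and 1634 genes. In contrast to CCN1, the surroundings of CCN2 were sparse. The window of 203 kb held 3, 4 and 4 peaks covering 12255, 13206 and 13104 bp, of which the promoter peak formed the larger part. The remaining shared regions lay 87.5 and 92.0 kb past the start, in ENPP1. A short region at −44.7 kb, upstream of the start, was called in both Hs578T lists alone, with fold enrichments of 2.94 and 3.24. CCN1 and CCN2 were therefore alike in carrying a peak over the entire gene and differed in how much of the surrounding sequence was marked.

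AMOTL2 (ENSG00000114019.15, chr3:134355347-134375479, minus strand) encodes an angiomotin family protein that binds YAP and holds it at junctions, and as a TEAD target it forms a feedback loop. Its promoter peak was the widest of the 10 genes, at 22309 bp in MDA-MB-231 replicate 2, 23693 bp in Hs578T replicate 1 and 22278 bp in Hs578T replicate 2. Only 22, 23 and 22 of all protein-coding genes had a wider one. The peak was placed almost wholly over the transcribed side, with 1496, 1483 and 1615 bp before the start and 20812, 22209 and 20662 bp after it. Its fold enrichment was moderate, 13.4, 11.8 and 9.21, at percentiles 74.8, 73.1 and 70.1 of the marked genes. Stronger peaks lay outside the gene. The highest fold enrichment of the window, 29.5, 22.7 and 20.3, was at an intergenic region centred 46.3 kb past the start, and an intergenic upstream region at −53.1 kb (chr3:134425905-134429099) had values of 23.4, 19.1 and 17.4. All regions together covered 47712, 49444 and 46088 bp of the window.

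ANKRD1 (ENSG00000148677.7, chr10:90912096-90921087, minus strand) encodes an ankyrin repeat protein of the muscle sarcomere and nucleus that is induced by YAP in many cell types. Its promoter peak was 12487 bp wide in MDA-MB-231 replicate 2, 12390 bp in Hs578T replicate 1 and 12613 bp in Hs578T replicate 2, over the whole gene. A region of similar size lay just upstream, intergenic and centred at −11.1 kb from the start (chr10:90925911-90938472). There the peaks measured 10626, 12562 and 11043 bp, and their fold enrichments of 23.4, 32.4 and 26.9 were above those of the promoter peak, 17.3, 23.9 and 19.3. The percentile of the promoter fold enrichment was 87.1 in MDA-MB-231 replicate 2, against 97.6 and 97.7 in the Hs578T lists. The value from the MDA-MB-231 label lay below both Hs578T values, which were close to each other.

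**Figure D2:**
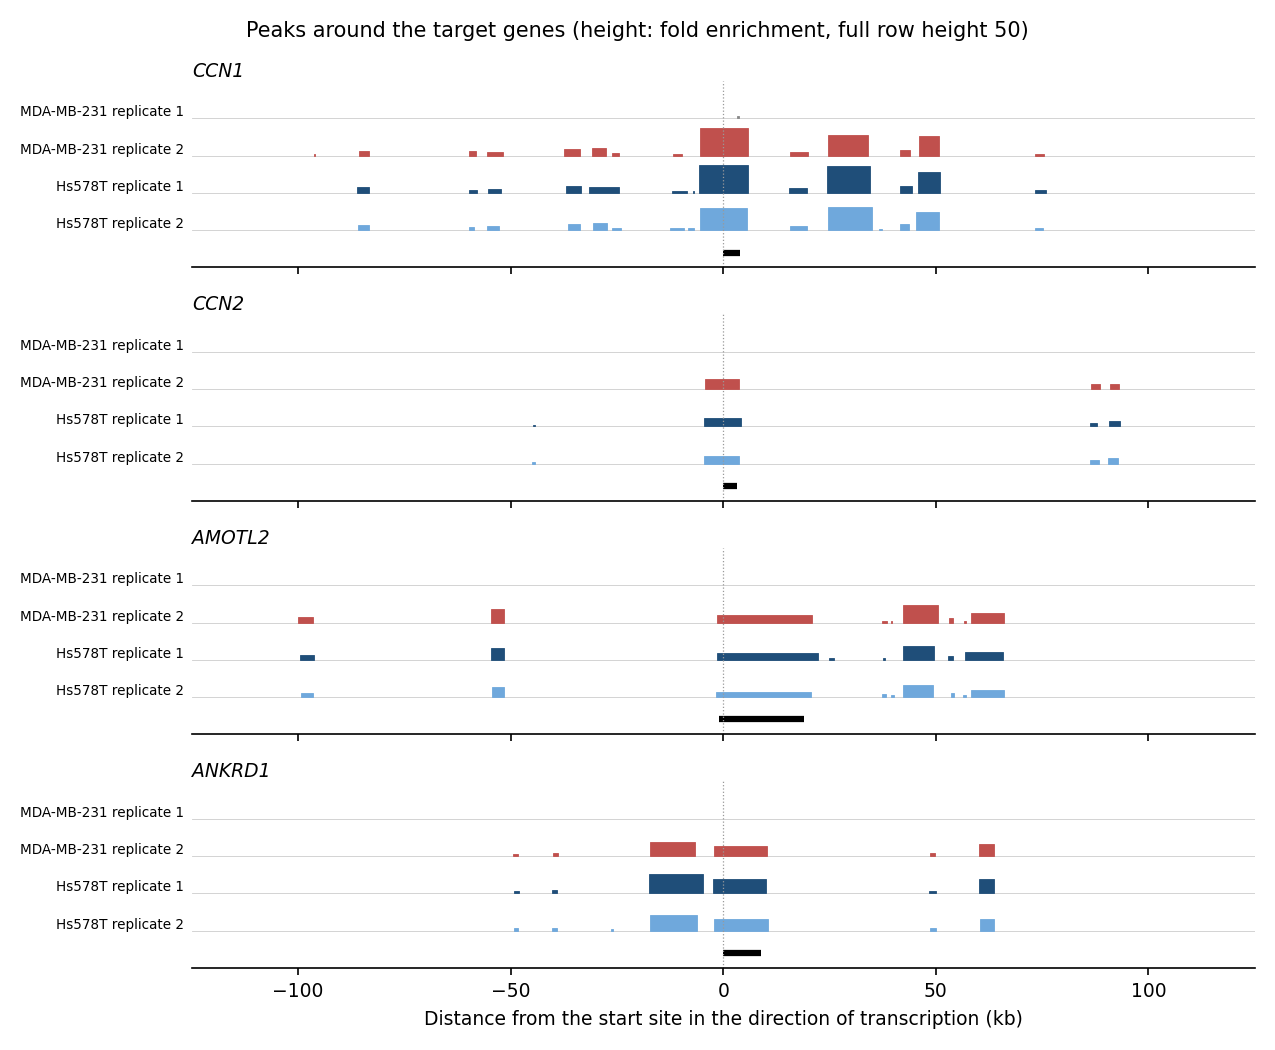
Peaks in the windows of CCN1, CCN2, AMOTL2 and ANKRD1. The x axis gives the distance from the start site in the direction of transcription in kb, each row is a list, the width of a box is the width of a peak, and its height is the authors' fold enrichment over the background of that library. The black bar is the gene body. The 3 large lists show nearly the same boxes, with a single small peak at CCN1 in MDA-MB-231 replicate 1.

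Pairs of TEAD and AP-1 letters were looked for in the distal regions of the target genes, that is, regions over 2.5 kb from every canonical start site and called in each large list. A pair counted if both words fitted within 100 bases that were covered in all 3 lists. CCN1 had 10 such regions, of which 10 held the TEAD letters, 6 the AP-1 letters and 1 a pair. AMOTL2 had 5 regions, of which 4 held TEAD letters, 4 AP-1 letters and 1 a pair. ANKRD1 had 3 regions and CCN2 had 2, and no pair lay within 100 bases in either. Of all distal peaks in the large lists, 58.1% to 58.4% held the TEAD letters and 50.3% to 51.9% the AP-1 letters. The regions here are merged over lists and can be wider than single peaks. How often a pair occurs over all distal regions was not counted, so no excess was read from these counts. The 2 pairs are printed with capitals for the TEAD letters GGAATG and the AP-1 letters TGACTCA, in the direction of transcription of the named gene. The first lies in the strong intergenic region downstream of CCN1 (chr1:85607457-85607556, plus strand), 26.7 kb from its start site. The second lies in the intergenic region upstream of AMOTL2 (chr3:134427589-134427688, minus strand), at −53.2 kb from its start site.
CCN1 downstream region: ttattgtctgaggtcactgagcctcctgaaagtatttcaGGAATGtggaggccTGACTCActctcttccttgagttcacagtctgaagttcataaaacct
AMOTL2 upstream region: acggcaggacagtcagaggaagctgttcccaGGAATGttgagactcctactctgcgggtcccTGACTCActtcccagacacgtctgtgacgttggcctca

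In these 2 sequences, 8 bases separate the TEAD letters from the AP-1 letters near CCN1 and 25 bases near AMOTL2. In both, the TEAD letters come first. Neither sequence overlaps an annotated exon.

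Over all distal peaks in the 10 windows, how the frequency of the TEAD letters compared with all distal peaks of the same list depended on the word and on the bases searched. The share of distal peaks with a match was 65.8% in MDA-MB-231 replicate 2 (95% Wilson interval 54.6 to 75.5%, 76 peaks), against 58.4% of all 28536 distal peaks of that list. It was 68.8% (57.9 to 77.8%, 80 peaks) against 58.4% in Hs578T replicate 1 and 64.4% (54.2 to 73.6%, 90 peaks) against 58.1% in Hs578T replicate 2. Per kb of distal peak, there were 0.796, 0.79 and 0.791 matches in the windows against 0.723, 0.718 and 0.728 in all distal peaks. For the core word, the intervals of the share thus included the value of all distal peaks. The stricter word GGAATGT was found in 42.1% (31.6 to 53.3%), 42.5% (32.3 to 53.4%) and 36.7% (27.4 to 47.0%) of the window peaks in the same order, against 25.8%, 26.2% and 25.9% of all distal peaks, outside these intervals. In the central 500 bp of each peak the core word was found in 18 of 76, 28 of 80 and 27 of 90 window peaks (intervals 15.5 to 34.4%, 25.5 to 45.9% and 21.5 to 40.1%), against 32.4%, 31.8% and 32.3%, so that the window peaks had the lower value in 2 of the 3 lists. The stricter word was found in the central 500 bp of 15.8%, 13.8% and 14.4% of the window peaks, against 11.2%, 11.1% and 11.2% of all distal peaks. Each of the latter values lay inside the Wilson interval of the window peaks. A share over whole peaks also depends on peak width, which was not matched. The AP-1 letters gave 0.38, 0.374 and 0.368 matches per kb in the windows against 0.473, 0.455 and 0.46. The share of window peaks with an AP-1 match, 47.4% (36.5 to 58.4%), 52.5% (41.7 to 63.1%) and 44.4% (34.6 to 54.7%), had intervals that included the values for all distal peaks, 51.9%, 51.1% and 50.3%. Intervals cover counting error only, since peaks of a locus are not independent and the 3 lists share most regions.

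**Figure D3:**
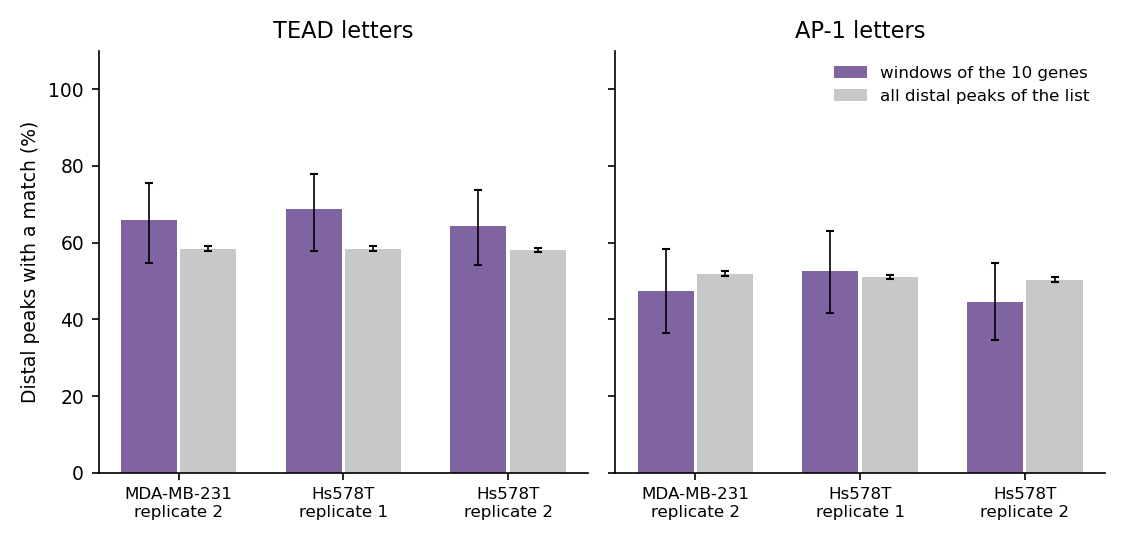
Share of distal peaks with the TEAD letters (left) and the AP-1 letters (right), in percent, for distal peaks in the windows of the 10 genes and for all distal peaks of the same list. Error bars are 95% Wilson intervals. For GGAATG and the AP-1 letters, the intervals of the window peaks include the value of all distal peaks in the 3 lists drawn.

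Among the TEAD genes, promoter marks were unequal. TEAD1 (ENSG00000187079.20, chr11:12674421-12944737, plus strand) had the widest promoter peak of the family, 7577 bp in MDA-MB-231 replicate 2, 7205 bp in Hs578T replicate 1 and 7484 bp in Hs578T replicate 2. The peak ran from 1146, 1213 and 1178 bp before the start to 6430, 5991 and 6305 bp after it. Its fold enrichment, 12.0, 9.94 and 8.56, was at percentiles 67.9, 63.6 and 65.7. The strongest peak of the window lay in an intron of TEAD1 about 19.0 kb from the start, with fold enrichments of 18.8, 22.1 and 21.6. Further intronic regions at 50.2 and 95.0 kb reached 9.82, 13.0 and 11.3, and 10.8, 10.2 and 11.1. The gene body is long, and peaks covered 13.0%, 15.0% and 14.6% of it. A start site of a shorter transcript, 205022 bp downstream, lay outside every peak.

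TEAD4 (ENSG00000197905.10, chr12:2959330-3040676, plus strand) had the promoter peak of the highest fold enrichment in the family. Values were 20.8 in MDA-MB-231 replicate 2, 17.2 in Hs578T replicate 1 and 13.1 in Hs578T replicate 2, at percentiles 93.6, 90.1 and 88.3. The peak was 3314, 3675 and 3617 bp wide and nearly symmetric about the start site. In contrast to TEAD1, the remaining TEAD4 gene body carried no further region shared by the lists, and peaks covered 2.13%, 2.42% and 2.42% of it. Among the other shared regions, those upstream lay in TULP3, the farthest of them also over RHNO1, and those downstream lay in TSPAN9 except for an intergenic region at 118 kb.

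The promoters of TEAD3 and TEAD2 were marked more weakly. TEAD3 (ENSG00000007866.22, chr6:35473597-35497079, minus strand) had promoter peaks of 1810, 1915 and 1539 bp in MDA-MB-231 replicate 2, Hs578T replicate 1 and Hs578T replicate 2, near the median of all marked genes. Their fold enrichments of 9.69, 5.71 and 4.19 were at percentiles 53.7, 28.1 and 17.3, and the rank under the MDA-MB-231 label was above both Hs578T ranks by more than these differed from each other. A region inside TEAD3, 10.5 kb after the start, was stronger than its promoter in each list, with fold enrichments of 23.5, 22.2 and 16.1.

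TEAD2 (ENSG00000074219.14, chr19:49340595-49362457, minus strand) had the lowest promoter fold enrichment of the 10 genes. Its values were 4.59, 3.82 and 3.52, at percentiles 12.2, 10.1 and 9.19, with widths of 1709, 2414 and 1721 bp. The same peak reached the promoter of the neighbouring gene DKKL1, so it cannot be assigned to TEAD2 alone. A like limit holds for CCN1, CCN2, YAP1, WWTR1 and ANKRD1, whose promoter peaks reached promoters of noncoding genes in each large list. At AMOTL2 this was so in Hs578T replicate 1 only. Further start sites of TEAD2 at 921 and 1978 bp after the canonical one lay outside every peak. The strongest peak of its window, at −90.4 kb, sat at the promoters of other genes. TEAD2 was also the gene lost in every large list when the strongest 50% of peaks by score were kept. All 4 TEAD genes thus had a promoter peak in the large lists. Both its width and its fold enrichment ranked TEAD4 and TEAD1 above TEAD3 and TEAD2 in each of them. This order was that of the promoters only. Peaks covered more of the TEAD3 window, 8.14%, 9.31% and 7.54%, than of the TEAD4 window, 6.61%, 7.76% and 6.65%.

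The coactivator genes combined strong promoters with marked gene bodies. At the promoter of YAP1 (ENSG00000137693.14, chr11:102110447-102233424, plus strand), fold enrichment was 25.4 in MDA-MB-231 replicate 2, 19.8 in Hs578T replicate 1 and 15.2 in Hs578T replicate 2, at percentiles 97.5, 94.3 and 93.3. The promoter peak was 4071, 3868 and 4136 bp wide. In the Hs578T lists a pair of intronic regions at 61.0 and 67.6 kb was stronger than the promoter, with 20.5 and 22.3 in replicate 1 and 20.9 and 19.8 in replicate 2. In MDA-MB-231 replicate 2 the same regions had 14.2 and 13.4, below its promoter. Peaks covered 15.2%, 17.1% and 16.1% of the gene body. The window also holds BIRC3, an inhibitor of apoptosis and NF-κB target, and a region at 208 kb that was 11976 bp wide when merged over the lists lay at that gene.

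WWTR1 (ENSG00000018408.15, chr3:149517235-149736714, minus strand) had the largest number of peaks of the 10 windows, 24 in MDA-MB-231 replicate 2, 26 in Hs578T replicate 1 and 29 in Hs578T replicate 2. Its promoter peak had fold enrichments of 21.1, 22.2 and 19.2, at percentiles 94.0, 96.4 and 97.6. The width of that peak varied more than at any other of the 10 genes, from 3285 bp in Hs578T replicate 2 to 4068 bp in MDA-MB-231 replicate 2 and 6358 bp in Hs578T replicate 1. The spread between the Hs578T replicates exceeded the distance of MDA-MB-231 replicate 2 from either. The widest peak of the window lay in an intron 79.8 kb after the start (chr3:149571117-149585413), with widths of 14297, 12246 and 11310 bp and fold enrichments of 23.3, 22.3 and 19.7. The start site of another transcript, at −45248 bp from the canonical one, lay outside every peak.

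**Figure D4:**
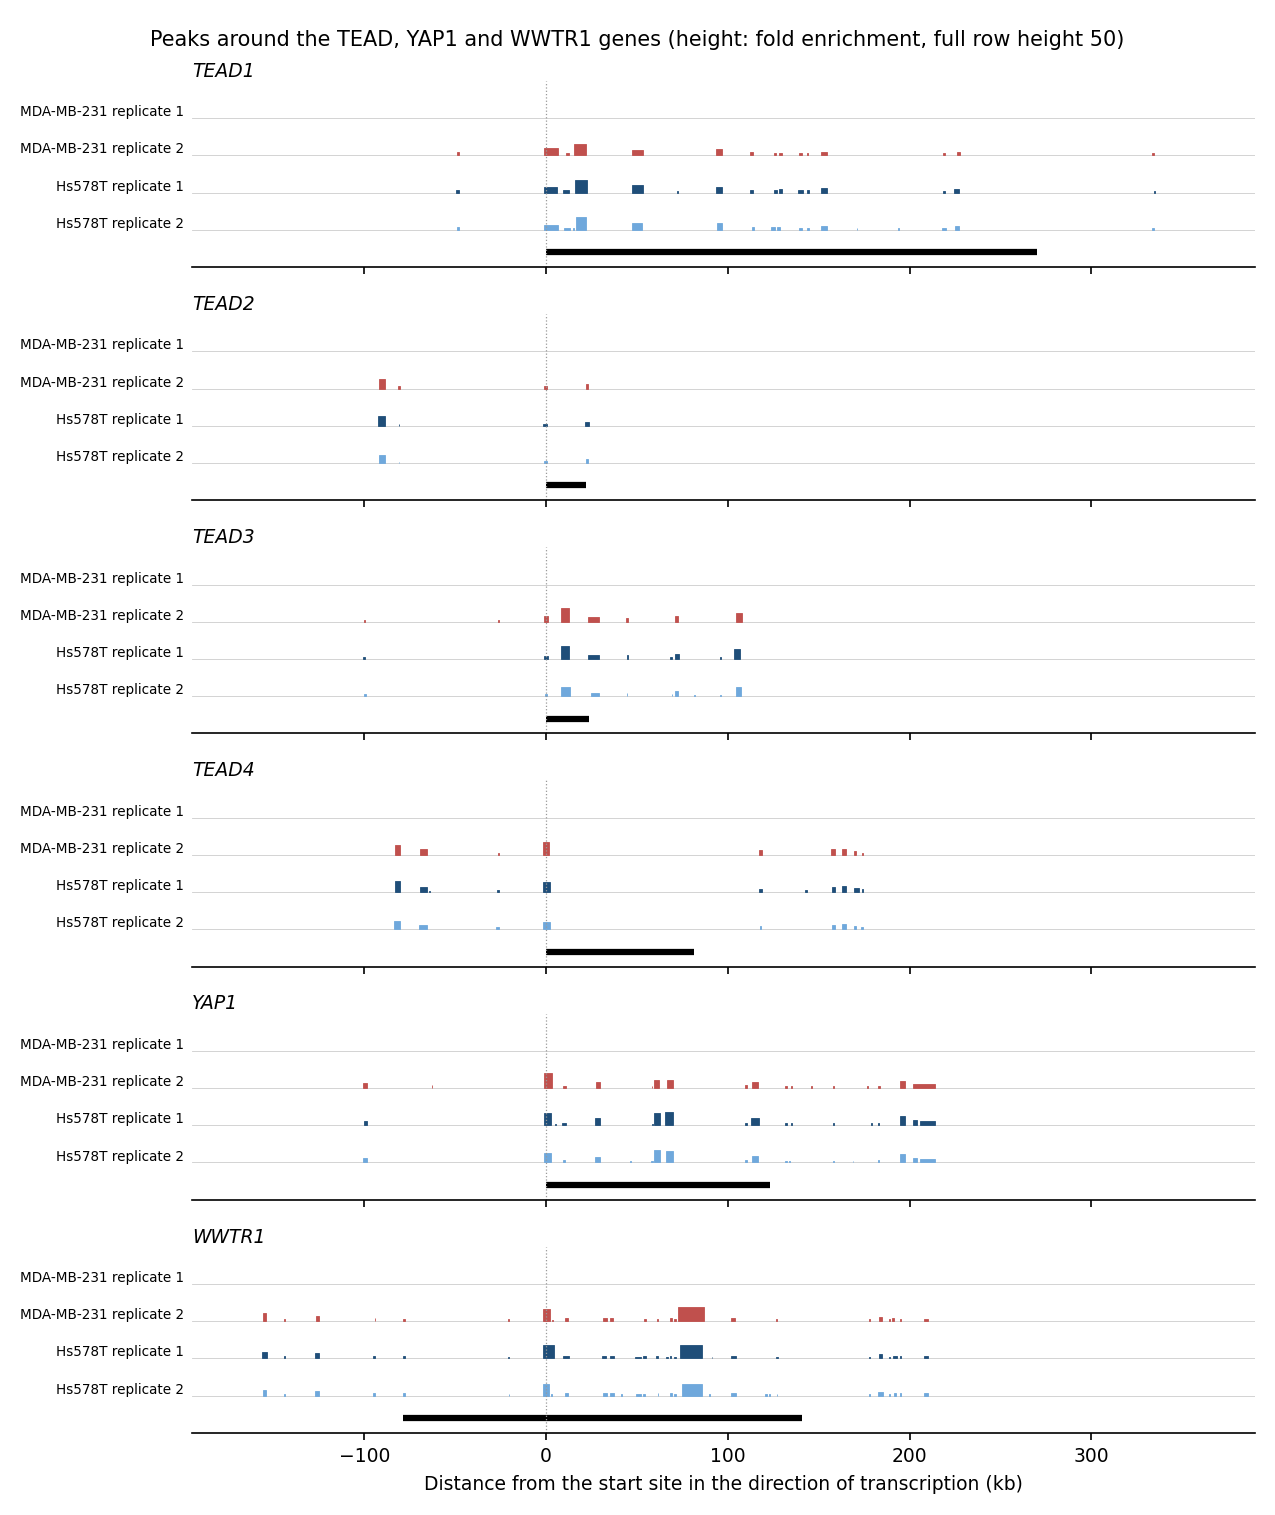
Peaks in the windows of the TEAD genes, YAP1 and WWTR1, drawn as for the target genes, with the distance from the start site in kb on the x axis, 1 row per list, box height as fold enrichment and the gene body as a black bar. TEAD1, YAP1 and WWTR1 have many peaks inside the gene, whereas TEAD4 has a strong promoter and an otherwise unmarked gene body. No peak of MDA-MB-231 replicate 1 lies in these 6 windows.

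The total extent of the mark was then compared between genes and between lists. The order by median covered bases over the 3 large lists was CCN1, WWTR1, AMOTL2, TEAD1, YAP1, ANKRD1, TEAD4, TEAD3, CCN2 and TEAD2, from 55098 to 7631 bp. Ranges of neighbours overlapped between CCN1 and WWTR1, between WWTR1 and AMOTL2, between TEAD1 and YAP1, and between TEAD4 and TEAD3. The other neighbours in the order did not overlap. Windows differ in length, and as a share of the window the targets CCN1, AMOTL2 and ANKRD1 led, AMOTL2 with 21.7%, 22.5% and 20.9% and ANKRD1 with 14.5%, 15.3% and 14.7%. The median over the 10 genes was 9.36%, 10.8% and 10.4%, against 3.96%, 4.37% and 4.0% over all protein-coding genes.

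**Figure D5:**
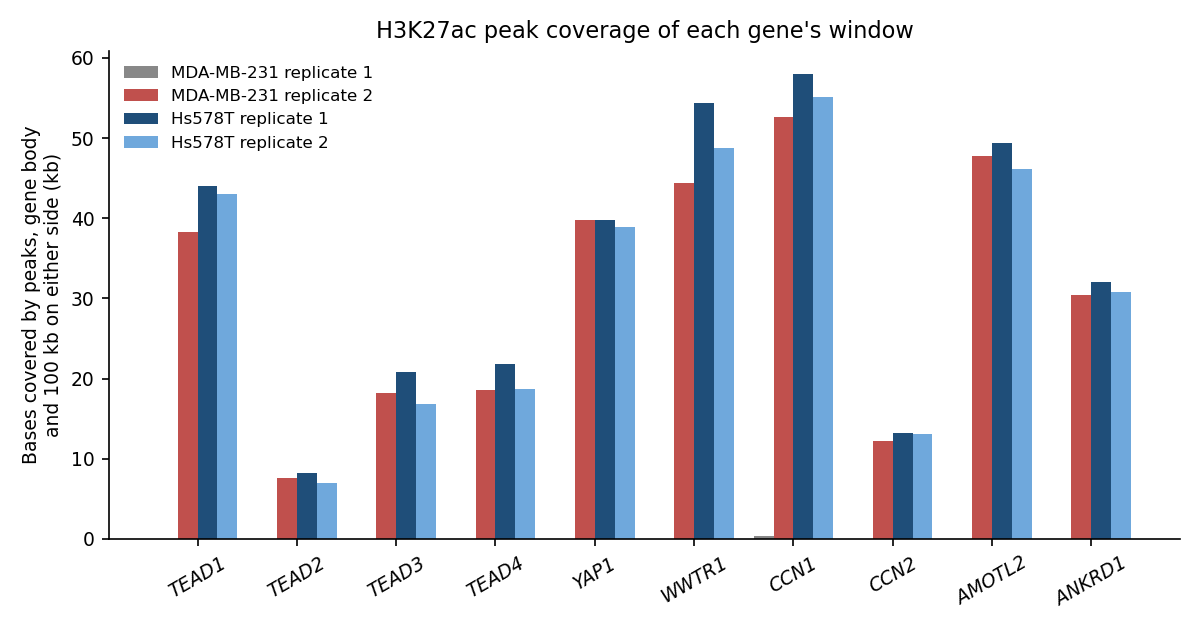
Bases covered by peaks in the window of each gene, in kb, for the 4 lists. Each bar is a single list, so there are no error bars. Bars of the 3 large lists are close to each other within a gene, from 7032 bp at TEAD2 to 57997 bp at CCN1, and MDA-MB-231 replicate 1 has 390 bp at CCN1 and nothing elsewhere.

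Summed over the 10 windows, peaks covered 309877 bp in MDA-MB-231 replicate 2. The corresponding sums were 341706 and 318308 bp for the Hs578T lists, or 330007 ± 16545 bp for Hs578T (SD, n = 2). In MDA-MB-231 replicate 1 the sum was 390 bp, so the MDA-MB-231 mean of 155134 ± 218840 bp (SD, n = 2) describes neither of its lists and lay within its own spread of the Hs578T mean. The 10 windows took 0.379% of all bases covered in MDA-MB-231 replicate 2, 0.377% in Hs578T replicate 1 and 0.38% in Hs578T replicate 2, values that lie side by side. Single genes were also close. Coverage in MDA-MB-231 replicate 2 was below both Hs578T lists at 6 genes (TEAD1, TEAD4, WWTR1, CCN1, CCN2 and ANKRD1), above both at YAP1 and between them at TEAD2, TEAD3 and AMOTL2. Among 18473 protein-coding genes with any coverage in the 3 lists, 47.4% were below both and 19.3% above both. The count of 6 of 10 is thus not far from what all genes showed, and with so few genes no difference was read from it. In bp, MDA-MB-231 replicate 2 lay farthest from the Hs578T mean at WWTR1, with 44353 bp against 51588 ± 4028 bp. TEAD1 came next, with 38253 bp against 43528 ± 702 bp. In relation to the Hs578T SD the distance was largest at CCN2, with 12255 bp against 13155 ± 72.1 bp. At TEAD4 the values were 18611 bp against 20273 ± 2192 bp (all SD, n = 2). An SD of 2 lists is a rough measure, so no gene is singled out by these distances.

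Merging the peaks of all lists gave 132 regions in the 10 windows. In all 3 large lists 101 of them (76.5%) were called, close to the 74.6% of all regions. Of the rest, 12 were called in Hs578T replicate 2 alone, 8 in Hs578T replicate 1 alone, 5 in MDA-MB-231 replicate 2 alone, 5 in both Hs578T lists but in neither MDA-MB-231 list, and 1 in MDA-MB-231 replicate 2 and Hs578T replicate 2. These regions were weak, with fold enrichments of at most 4.53. That was below the median over all peaks of MDA-MB-231 replicate 2 (5.61), Hs578T replicate 1 (5.12) and Hs578T replicate 2 (4.85). The 5 regions called under the Hs578T label alone comprised a pair of regions in PPARD near TEAD3, 1 in an intron of WWTR1, 1 at −7.55 kb of CCN1 and 1 at −44.7 kb of CCN2. The widest of them, in WWTR1 at 50.7 kb, spanned 3299 bp with fold enrichments of 2.90 and 3.16. No strong region of these genes was therefore called under 1 label and missed in the large list of the other. How the regions of the whole lists divide in this way, and how strong those not shared are, was not counted. Neither the split nor the weakness is therefore read as a trait of these genes.

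Most peaks of the windows were distal, as were most peaks of each large list. In the windows, MDA-MB-231 replicate 2 had 110 peaks, 76 of them distal, Hs578T replicate 1 had 115 and 80, and Hs578T replicate 2 had 123 and 90. In the whole lists, 28536 of 43353, 31086 of 46330 and 30162 of 44920 peaks were distal, so a distal majority was not particular to these genes. For the next counts no share over all peaks was computed. Among distal peaks of the windows, 54, 61 and 68 had their midpoint in an intron. Inside the body of the gene of the 10 that the window was built on lay 32, 36 and 42. Window peaks that reached the promoter of another protein-coding gene numbered 15, 14 and 14. They lay in the windows of the 4 TEAD genes, YAP1, WWTR1 and ANKRD1, and none lay in those of CCN1, CCN2 and AMOTL2.

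Other genes of the pathway were looked at in fixed lists. Of 24 genes of the Hippo cascade, its adaptors and the VGLL cofactors, the promoter was marked at 20 in MDA-MB-231 replicate 2, at 20 in Hs578T replicate 1 and at 19 in Hs578T replicate 2, beside 58.1%, 58.2% and 56.4% of all genes. AMOT, the founding angiomotin, DCHS1, an atypical cadherin, and the cofactor genes VGLL1 and VGLL2 had none in any list, and VGLL3 had none in Hs578T replicate 2. Most Hippo promoters were of ordinary width, with medians of 2158, 2137 and 2607 bp, and 1, 2 and 2 of 24 were at least 5 kb wide, beside 4.6%, 5.51% and 4.32% of all genes. The widest by mean were FAT1, a giant protocadherin upstream of the kinases (9891 bp), PTPN14, a phosphatase that binds YAP (5072 bp), the scaffold WWC1, also known as KIBRA (4537 bp), and the kinase MAP4K4 (3761 bp).

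The 22 genes of a YAP and TAZ target signature, which include the 4 targets above, had a promoter peak at 22, 22 and 21 genes, FOXF2 being absent in Hs578T replicate 2. The peak was at least 5 kb wide at 14 genes in each of the 3 large lists, and the shares of all genes to set beside both counts are those just given. Median widths were 6906, 7262 and 7958 bp. Wide promoter peaks also occurred at 3 of the 4 mesenchymal markers, of which AXL is in the signature too, in each large list, with median widths of 10324, 10341 and 10274 bp. The widest by mean were MYOF, a membrane repair protein (36791 bp), AMOTL2 (22760 bp), NT5E, the ecto-nucleotidase CD73 (22309 bp), and F3, tissue factor (18796 bp). At MYOF the peak varied between lists, with 31158, 50710 and 28505 bp, whereas F3 had 18449, 19062 and 18877 bp. No gene of either pathway list had its promoter marked in MDA-MB-231 replicate 1.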

How the data were processed

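H3K27ac ChIP-seq peak lists of 4 libraries were used, grouped by the sample titles. Per the labels and the study's methods, the authors trimmed reads with Trimmomatic, mapped them to hg38 with Bowtie2, called peaks per library with MACS2 against input and removed blacklisted regions. Versions and MACS2 settings are not given in the sources used here, and broad mode is inferred from the 9 columns. The deposited columns hold a score, a fold enrichment (a ratio, column 7), and −log10 p-values and q-values, and the largest q-value per list was 0.0827 to 0.0994. Read numbers are unknown, so weak regions can pass or miss the threshold with depth, and floors on counts could not be given. Peaks called against input depend on the input library too.

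All 71 sequence names of the lists were found in the reference, and 0 peaks ran past a sequence end. Genes came from GENCODE release 44, with start sites of Ensembl canonical transcripts, and sequences from hg38. Peaks were clipped at the windows for covered bases, and overlap needed 1 bp. Where several peaks met a promoter the widest was taken. Percentiles are among protein-coding genes of the same list. Text searches and counts used Python 3.11.15, numpy 2.4.6 and pandas 2.3.3, and were checked on simulated peaks. All 10 genes are named. Of the pathway lists, genes without a promoter peak in a large list and the 4 widest by mean are named. Sequences printed are the 250 bases before the targets and the closest TEAD and AP-1 pair per target. Genes, lists and rules were chosen with earlier results of these data known, and the 5 kb limit after seeing the values. Nothing says whether the replicates were separate cultures. No p-value was computed.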

Additional observations from a re-analysis of the deposited data

How the results depend on the processing

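Of 80 alternative settings over 22 values, 58 moved a count by no more than 1.5 times or another value by no more than 1 SD, and 22 moved it further. The SD was that of the Hs578T replicates, except that the mean of a line was held against that line's own SD, which leaving out 1 of 2 replicates can never exceed. For covered bases the Hs578T SD was 16545 bp, far above the 390 bp of MDA-MB-231 replicate 1. The fall of that value to 0 bp at q of at most 0.01 therefore counted among the 58. Since some of the 58 could not have moved further by this rule, their number does not measure stability. The 10 of 10 genes with a promoter peak in each large list stayed with windows of 500 bp and 2.5 kb, with all basic start sites and at q of at most 0.01, and fell to 9 of 10 among the strongest 50% of peaks, TEAD2 being lost. Values below are in the order MDA-MB-231 replicate 2, Hs578T replicate 1 and Hs578T replicate 2. Covered bases were 239547, 268729 and 251524 bp with a flank of 50 kb, 166098, 190039 and 174823 bp with a flank of 10 kb, 255598, 274328 and 249273 bp among the strongest 50% of peaks, and 267910, 301429 and 281671 bp without peaks at other promoters. Peak counts among the strongest 50% were 57, 60 and 60. In MDA-MB-231 replicate 1 the peak count was 0 at q of at most 0.01. The TEAD letters per kb were 0.279, 0.281 and 0.271 for the stricter word, against 0.204, 0.203 and 0.206 over all distal peaks. In the central 500 bp of peaks they were 0.634, 0.909 and 0.749 against 0.851, 0.834 and 0.858, which turned the direction of the difference in MDA-MB-231 replicate 2 and Hs578T replicate 2. The stricter word matches less often by construction, and for the central bases the cause was not tested. Leaving out either MDA-MB-231 replicate moved that line's means over wide ranges. These were 0 to 10 genes with a promoter peak (mean 5 ± 7.07), 1 to 110 peaks (55.5 ± 77.1) and 390 to 309877 covered bp (155134 ± 218840, all SD, n = 2), the low ends being replicate 1 alone. For Hs578T the ranges were 10 to 10 genes, 115 to 123 peaks and 318308 to 341706 bp. In MDA-MB-231 replicate 2, 104 of the 110 peaks of the windows had a counterpart in both Hs578T lists, and 89 did when the overlap had to be at least 50% of both peaks. The same count over all peaks of that list was not made, so no agreement particular to these windows was read from it. No paired analysis was possible because the labels pair no library of MDA-MB-231 with a library of Hs578T. Depth is unknown, so a region missing from a list was not shown to lack H3K27ac.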

Other observations

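Several windows hold other genes with marked promoters, and these were the same in the 3 large lists except at YAP1. The TEAD4 window included the promoters of FOXM1, a transcription factor of the cell cycle, RHNO1, TULP3 and TSPAN9, and the TEAD1 window that of RASSF10. The promoters of ALDH16A1, DKKL1 and PIH1D1 were reached near TEAD2, those of FANCE, a Fanconi anaemia gene, and RPL10A, a ribosomal protein gene, near TEAD3, and those of COMMD2, RNF13 and TM4SF4 near WWTR1. HTR7, a serotonin receptor gene, and RPP30 were reached in the ANKRD1 window. BIRC3 was reached near YAP1 in each large list, and CFAP300 in MDA-MB-231 replicate 2 alone, by a peak with a fold enrichment of 4.53. The part that these promoters play in the coverage of each window was measured only as the sum without them, given above.

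Hippo pathway genes held the TEAD letters in the 250 bases before their start sites at 3 of 24 genes (12.5%, against 9.89% of all protein-coding genes), namely PTPN14, VGLL1 and WWC2. In the YAP and TAZ signature the letters were found at 9 of 22 genes (40.9%), 4 of which are the target genes described here and 1 of which is PTPN14. Such signatures were built from genes that respond to YAP, so the second share is not independent of the choice of genes.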
